A study of Mus musculus with 8 samples.

Results

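The miR-181a to miR-181d family of microRNAs was examined in mouse microvascular smooth muscle (mVSM) cells that lack the small GTPase Rap1a, with and without the RapCA construct. Its members were taken by name from a mouse miRNA microarray: every spot that is no control and whose miRNA name has the stem miR-181a, miR-181b, miR-181c or miR-181d. That gave 6 mature forms of the 650 miRNAs on the array, measured by 14 probes in 120 spots per array. They are the guide strands mmu-miR-181a, mmu-miR-181b, mmu-miR-181c and mmu-miR-181d and the opposite strands miR-181a-1* and miR-181a-2*. The 4 RapCA cultures (condition mVSM-RapCA) were Rap1a knockout cells given virus with the RapCA Shuttle vector, and the 4 Control cultures (condition mVSM Rap1a -/-) were the same kind of cells given the empty Shuttle vector. Both groups came from male C57BL6 animals, so every culture lacks the endogenous Rap1a gene and carries a viral vector. Cells were kept in 10% serum, exposed to virus overnight without serum and left for 48 h in 0.5% serum before RNA was taken. The sources used here do not say what RapCA encodes, Rap1a itself is not read by this array, and whether the 4 biological replicates of a group came from separate animals is not given. The p-values below set group differences against the spread within groups of these 8 cultures and their arrays. They cannot be read as covering the spread between animals.

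MicroRNAs are short RNAs that bind messenger RNAs, mainly through the seed at bases 2 to 8, and lower their translation and stability. The family is known for tuning antigen receptor signalling in developing T cells, where miR-181a represses phosphatases. In endothelial cells miR-181b is known to restrain NF-kB signalling by repressing an importin that carries NF-kB into the nucleus.

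The 4 guide strands share 1 seed, and the opposite strands do not carry it. The sequences are shown because the array has to tell these near-identical RNAs apart. They are given 5′ to 3′ from RefSeq annotation of GRCm38.p6, with bases 2 to 8 in capitals, and all 6 forms were matched.
miR-181a: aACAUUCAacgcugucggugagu
miR-181b: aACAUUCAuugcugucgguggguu
miR-181c: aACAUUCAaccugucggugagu
miR-181d: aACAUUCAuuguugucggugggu
miR-181a-1*: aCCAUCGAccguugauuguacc
miR-181a-2*: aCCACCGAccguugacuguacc

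In that annotation no other mouse miRNA carries the seed of the guide strands, which is found in 4 mature names. Counted from 1 at the 5′ end, miR-181a and miR-181b differ by A9U, C10U and A21G, and miR-181b is 1 base longer. miR-181b and miR-181d differ by C12U over the 23 positions they share. miR-181c lies at an edit distance of 1 from miR-181a, being 22 bases long against 23. The opposite strands of the 2 miR-181a hairpins differ by U5C and U16C.

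The guide strands come from 3 clusters (GRCm38.p6). Mir181a-1 (chr1:137966455-137966541, plus strand) and Mir181b-1 (chr1:137966639-137966718, plus strand) lie 97 bases apart and overlap no other annotated gene. Mir181a-2 (chr2:38852735-38852810, plus strand) and Mir181b-2 (chr2:38853830-38853918, plus strand) lie 1019 bases apart within the span of the protein-coding gene Nr6a1 and of the non-coding RNA gene Nr6a1os. Mir181c (chr8:84178873-84178961, minus strand) and Mir181d (chr8:84178716-84178787, minus strand) lie 85 bases apart. Since both copies of miR-181a give the same mature RNA, as do both copies of miR-181b, the array sums over the chromosome 1 and chromosome 2 clusters. The star forms of miR-181a are the readouts that belong to 1 cluster each.

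All 8 arrays were on 1 slide per the file headers. The RapCA arrays were in one column and the Control arrays in the other, so that slide column and group cannot be told apart. Arrays with the same replicate number shared a slide row. Before scaling the RapCA arrays were dimmer. The summed probe signal was 51821 ± 22868 on the RapCA arrays and 106139 ± 15791 on the Control arrays (SD, n = 4 each), a ratio of 0.488 (two-sided exact permutation p = 0.0286, the smallest that 70 assignments allow; with 4 array measures compared, the Benjamini-Hochberg adjusted p was 0.0571). The first RapCA replicate was brightest of its group at 86021, near the lowest Control array at 89889, while the other RapCA arrays had 38058 to 42303. Spike-in RNAs averaged 1243 ± 106 on RapCA arrays and 1243 ± 108 on Control arrays (SD, n = 4 each). Of 5 smooth muscle markers, miR-143 and miR-145 were tested and both were lowered in RapCA cells, beside 50% of all tested miRNAs called lowered. Their log2 differences were -1.62 and -0.75. miR-145 was detected on 0 RapCA arrays and its RapCA mean (3.27) lay at the floor (3.26) described below, so the floor limits its size. The markers miR-1, miR-133a and miR-133b were detected on no array. Without scaling, the summed signal of the 5 markers was 27.3 to 98.8 on the RapCA arrays and 187.04 to 325.9 on the Control arrays. The part of these markers in the results below, like that of array brightness, was not tested. The 2 endothelial, 6 blood cell and 5 epithelial marker miRNAs were not detected on any of the 8 arrays, nor were 6 of 7 striated muscle markers (all but miR-206).

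The guide strands miR-181a and miR-181b carried the family's signal, and both were dimmer on every RapCA array than on any Control array. How many other miRNAs did so on unscaled signal was not counted. The summed signal of the arrays did not overlap either, with at most 86021 on RapCA and at least 89889 on Control arrays. On the scaled signal described below, 46.4% of the 168 tested miRNAs were lower in RapCA cells without overlap. The lack of overlap is thus not particular to the family. The family was picked with knowledge of its signal in this RapCA and Control contrast, and was thus chosen on the values below, which are given as a description and without p-values. Each guide strand had 2 probes of 10 spots, and signals are the processed intensity after background subtraction.

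miR-181b had the lower unscaled ratio of RapCA to Control by its brighter probe. Its brighter probe read 22.2, 11.1, 9.02 and 10.1 in RapCA replicates 1 to 4, against 66.7, 55.1, 70.9 and 50.3 in Control replicates 1 to 4 (unscaled signal). The group means were 13.1 ± 6.12 in RapCA cells and 60.7 ± 9.65 in Control cells (SD, n = 4 each), a ratio of 0.216. The highest RapCA value, 22.2, lay below the lowest Control value, 50.3, and came from RapCA replicate 1, whose summed signal was nearly that of Control replicate 4. The dimmer probe read 9.23, 3.89, 4.25 and 3.86 in RapCA cells, against 34.96, 27.05, 32.4 and 23.9 in Control cells, and was detected on 0 RapCA arrays, so no ratio is given for it. Repeat spots of the brighter probe varied by an SD of 1.58 to 3.26 on the RapCA arrays and 3.29 to 4.68 on the Control arrays, a spread within an array and not between cultures. Of the kept miR-181b spots, 18 of 80 were well above background on the RapCA arrays and 76 of 76 on the Control arrays. Only RapCA replicate 1 passed the detection rule used here for miR-181b (over 0.5 of a probe's spots well above background). The values of RapCA replicates 2 to 4 thus lie near the detection limit. By the looser call of the Feature Extraction software, miR-181b was detected on all 4 RapCA arrays.

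miR-181a lay below the Control range too. Its brighter probe read 36.5, 17.2, 17.7 and 17.4 in RapCA replicates 1 to 4, against 79.1, 67.4, 85.7 and 60.8 in Control replicates 1 to 4. The group means were 22.2 ± 9.52 in RapCA cells and 73.3 ± 11.2 in Control cells (SD, n = 4 each), a ratio of 0.303, and the groups did not overlap. This probe was detected on all 8 arrays, unlike any other probe of the family. The dimmer probe of miR-181a read 7.0, 0.927, 1.98 and 1.46 in RapCA cells, against 21.1, 16.2, 17.8 and 15.3 in Control cells, and 0 of its 39 RapCA spots were well above background. Its mean scaled Control level (3.62 on the log2 scale) lay under the lowest detected level averaged over the 4 RapCA arrays (4.09). That average need not hold for RapCA replicate 1, whose summed signal was near that of the dimmest Control array. No fold is given for this probe, and the sizes of the 2 probes cannot be compared.

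**Figure D1:**
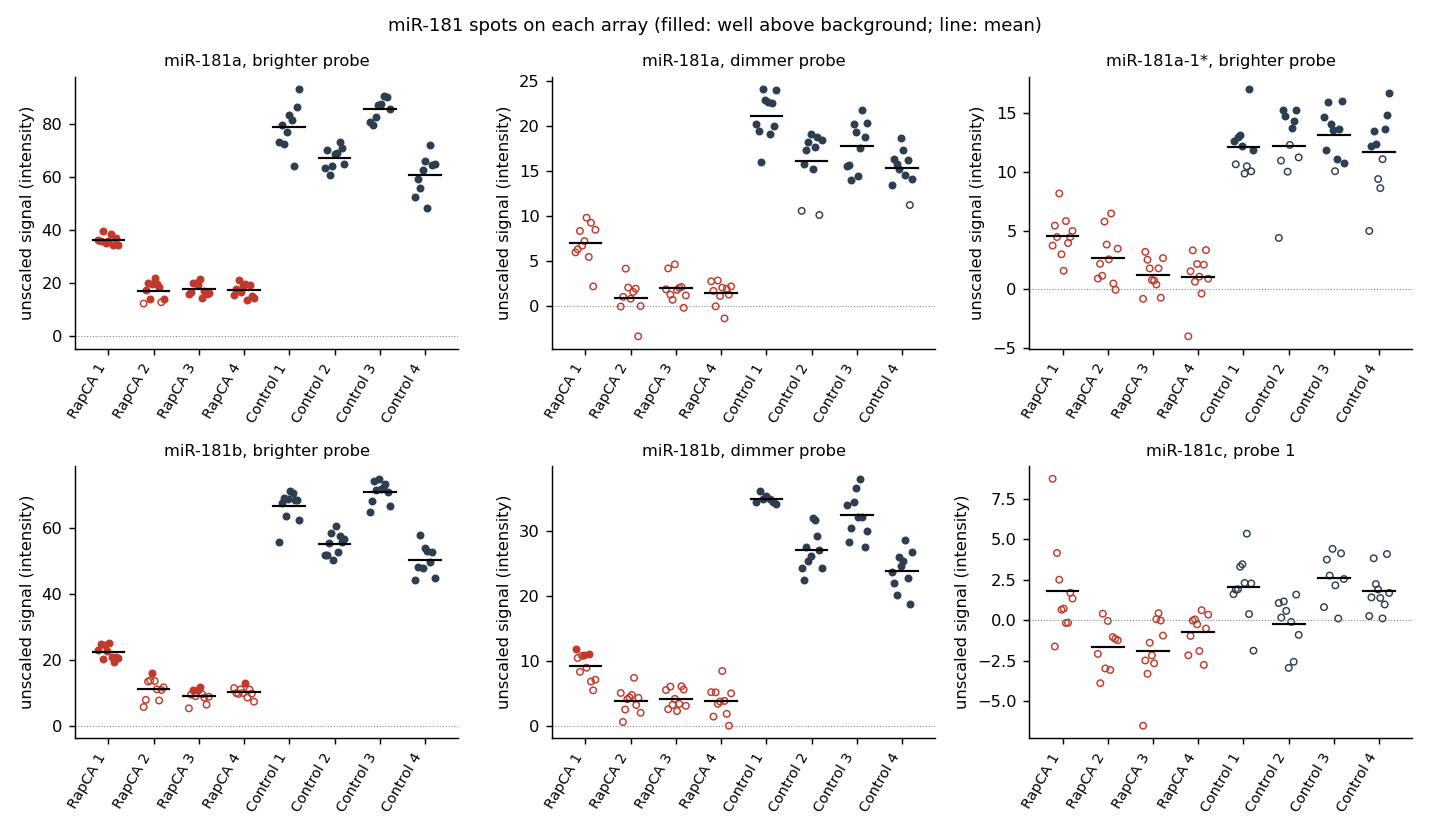
Unscaled signal (intensity, linear axis) of every kept spot of 6 probes of the family on the 4 RapCA and 4 Control arrays. Points are spots, filled where well above background, and black lines are means per array. For the brighter probes of miR-181a and miR-181b, RapCA replicate 1 lies above the other RapCA arrays and below every Control array, and miR-181c stays near 0 on all arrays.

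Most probes read lower on the dimmer RapCA arrays. Over the 283 probes detected on all 4 Control arrays the median unscaled ratio of RapCA to Control was 0.396, with quartiles of 0.270 and 0.672. The brighter miR-181b probe had a lower ratio than all but 39 of them, and the brighter miR-181a probe than all but 93. Taking probes by detection on Control arrays alone can favour low ratios. The brighter miR-181b probe was detected on 1 RapCA array, so its ratio and place rest largely on readings near background. As a share of all miRNA signal on an array, in parts per 1000000 (ppm) of the total gene signal that Feature Extraction gives, miR-181b made up 273 ± 69.6 ppm in RapCA cells and 852 ± 132.7 in Control cells. For miR-181a the share was 439 ± 47.2 ppm in RapCA cells and 857 ± 120 in Control cells (SD, n = 4 each). The highest RapCA and lowest Control values were 367 and 730 ppm for miR-181b, and 508 and 742 ppm for miR-181a. How many other miRNAs had shares that kept the groups apart was not counted, so nothing is read from this. On the scaled signal below, 46.4% of tested miRNAs were lower without overlap.

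For the comparison across miRNAs, arrays were scaled to a common 75th percentile over 189 probes detected on every array, floored at 3.26 on the log2 scale and averaged per miRNA. Of the 6 forms, miR-181a and miR-181b passed the detection filter and were among the 168 miRNAs tested. Both probes of miR-181b and the dimmer probe of miR-181a passed it through the Control arrays alone. miR-181b had log2 scaled signals of 3.64, 3.84, 3.62 and 3.75 in RapCA replicates 1 to 4, against 5.07, 4.63, 4.80 and 4.90 in Control replicates 1 to 4. Its log2 difference, RapCA minus Control, was -1.14 ± 0.11 (SE). miR-181a had 4.00, 4.14, 4.10 and 4.11 in RapCA cells, against 4.83, 4.44, 4.53 and 4.72 in Control cells, a log2 difference of -0.54 ± 0.10 (SE). Neither miRNA overlapped between the groups on this scale, with all 4 RapCA values below all 4 Control values.

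Both lay past the limma threshold in the lowered direction, as did 84 of the 168 tested miRNAs (50%), beside 44 raised (26.2%) and 76.2% called in either direction. Of those tested, 46.4% were lower without overlap and 67.9% did not overlap in either direction. Since the family was picked with this contrast known, nothing is read from its count. The median log2 difference of all tested miRNAs was -0.30, so that relative to it miR-181b lay at -0.83 and miR-181a at -0.24. Counted from the most lowered miRNA, miR-181b ranked 21 and miR-181a 65 of 168. These places come from the contrast on which the family was picked. They rest partly on RapCA readings near background or at the floor, so nothing is read from them. Values near the floor are understated: with the floor at a scaled signal of 1 the log2 differences were -1.45 for miR-181b and -1.36 for miR-181a. With the brighter probe alone they were -1.25 and -0.73. Without RapCA replicate 1, miR-181b had -1.05 and miR-181a -0.46.

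**Figure D2:**
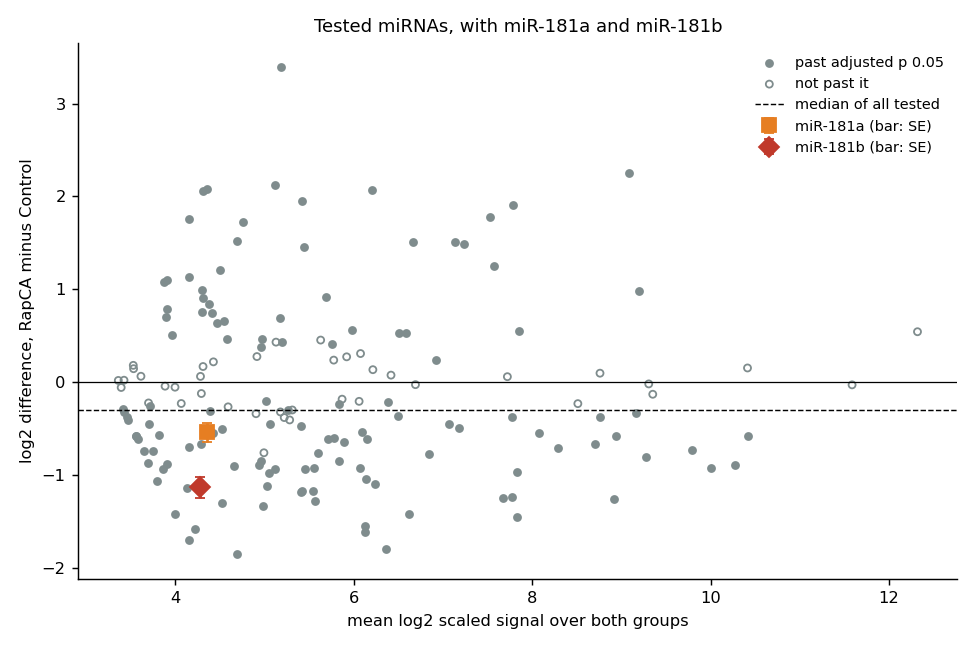
Log2 difference, RapCA minus Control, against the mean log2 scaled signal of both groups for the 168 tested miRNAs. Grey points are miRNAs, filled where past the threshold, the dashed line is their median of -0.30, and miR-181a and miR-181b carry SE bars. miR-181b lies at -1.14, farther below the median than miR-181a at -0.54, and both sit among the dimmer miRNAs.

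The scaling between arrays changed the sizes. Without scaling the log2 differences were -1.65 for miR-181b and -1.15 for miR-181a, with spike-in scaling -1.70 and -1.19, and with cyclic loess -0.66 and -0.22, where miR-181a was no longer past the threshold. Under normexp background correction, which models background and signal together, adding 50 to each spot gave 0.29 and 0.34, neither past the threshold. The median of all tested miRNAs was 0.37 there.

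**Figure D3:**
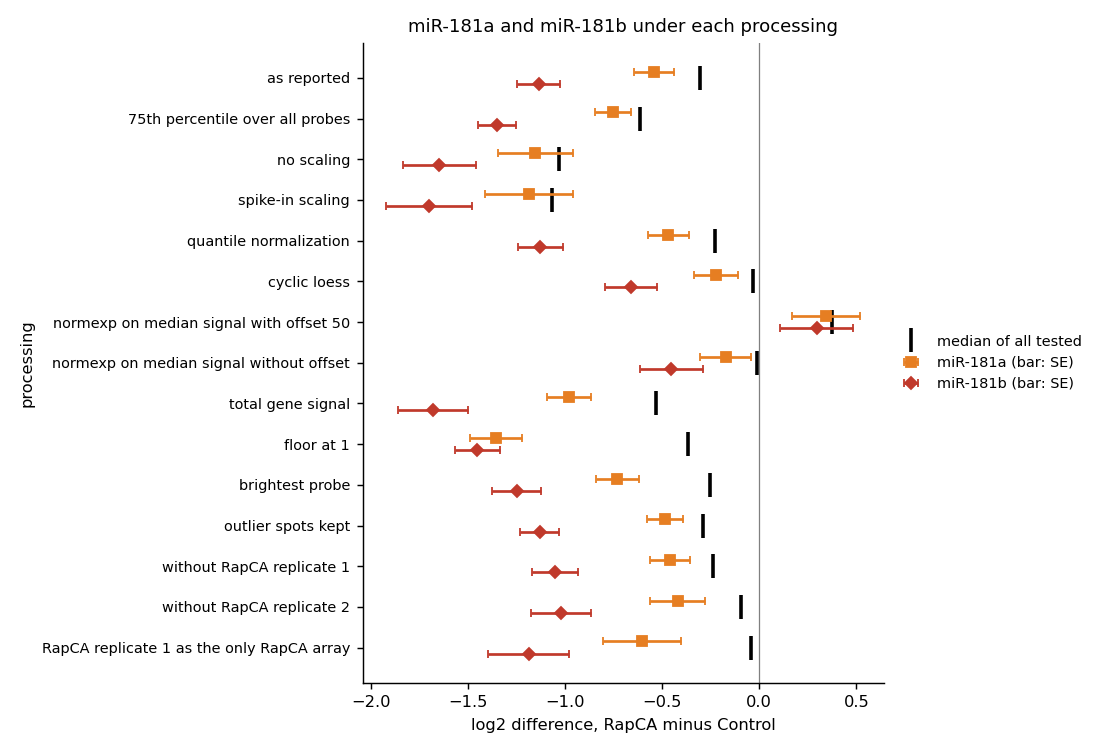
Log2 difference, RapCA minus Control, of miR-181a (squares) and miR-181b (diamonds) with SE bars under each processing, and the median of all tested miRNAs (vertical ticks). Both lie below 0 in every row except normexp with an offset of 50, where they are 0.34 and 0.29, and miR-181b lies below the tick throughout.

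Within an array, the log2 difference between single probes of the 2 guide strands is free of any constant scaling factor where no floor is set. Log2 of the brighter miR-181b probe minus the brighter miR-181a probe was -0.71, -0.62, -0.98 and -0.78 in RapCA replicates 1 to 4, against -0.25, -0.29, -0.27 and -0.27 in Control replicates 1 to 4. The mean was -0.77 ± 0.15 in RapCA cells and -0.27 ± 0.02 in Control cells (SD, n = 4 each), a shift of -0.501 with no overlap. This miR-181b probe was detected on RapCA replicate 1 and not on RapCA replicates 2 to 4, where 1, 3 and 1 of its 10 spots were well above background. On RapCA replicate 1, where both probes were detected, the difference was -0.71, below the 4 Control arrays, which lay between -0.29 and -0.25. That is 1 array, so an unequal change of miR-181a and miR-181b is not established by these readings. With both probes of each miRNA and the floor, the shift was -0.60. With the floor at 1 it was -0.10, where the dimmer miR-181a probe enters with unscaled RapCA readings of 0.927 to 7.0. That dimmer probe was below detection on every RapCA array.

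**Figure D4:**
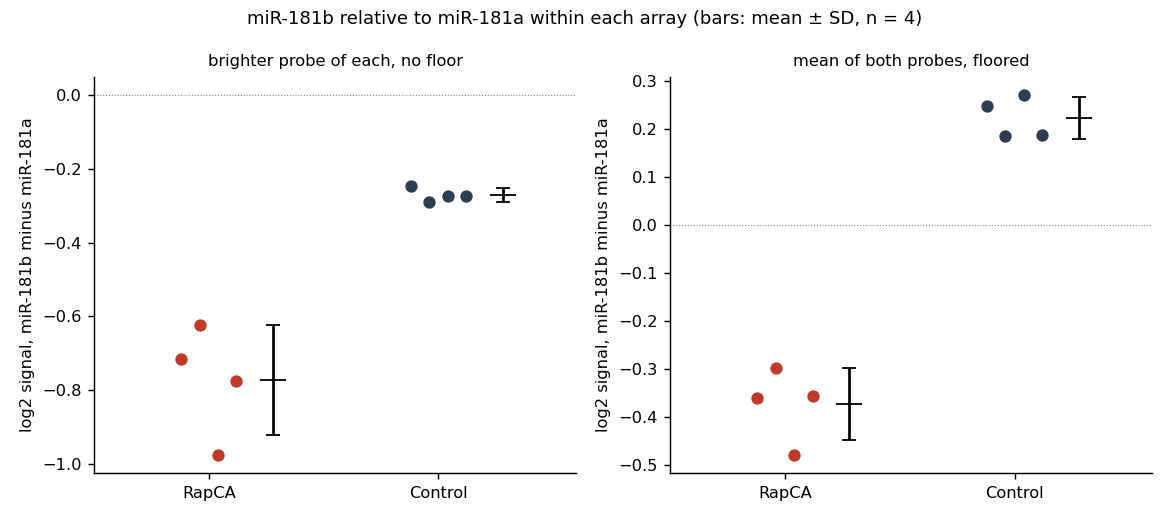
Log2 signal of miR-181b minus miR-181a within each array, for the brighter probes without a floor (left) and the floored mean of both probes (right). Points are arrays, RapCA left of Control, and bars are the mean ± SD of 4. RapCA arrays lie between -0.98 and -0.62 in the left panel, below every Control array.

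The opposite strand of the chromosome 1 hairpin, miR-181a-1*, was seen faintly and in Control cells alone. Its brighter probe read 4.56, 2.68, 1.24 and 1.08 in RapCA replicates 1 to 4, against 12.1, 12.2, 13.2 and 11.7 in Control replicates 1 to 4. In all, 0 of 78 RapCA spots and 26 of 78 Control spots of this form were well above background. The probe passed the detection rule on 3 of 4 Control arrays, missing it on Control replicate 2 with 5 of 10 spots, so the form was not tested. Feature Extraction called this form detected on 4 Control arrays and 0 RapCA arrays. No fold is given here either, since its mean scaled Control level (3.32 on the log2 scale) lay under the lowest detected level averaged over the 4 RapCA arrays (4.09). That average need not hold for the brighter RapCA replicate 1.

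The remaining forms gave no signal on any array. Over the 8 probes of miR-181c, miR-181d and miR-181a-2*, means per probe and array ran from -2.0 to 2.08 on the RapCA arrays and from -2.24 to 2.65 on the Control arrays. None of their 228 kept RapCA spots or 228 kept Control spots was well above background. Negative control spots averaged 2.40 to 3.14 on the RapCA arrays and 3.53 to 5.57 on the Control arrays. Within an array they varied by an SD of 1.96 to 2.66 on RapCA arrays and 6.68 to 19.3 on Control arrays. A difference between the groups was therefore not detectable for these 3 forms. Close as miR-181c is to miR-181a and miR-181d to miR-181b in sequence, their probes stayed at this level on Control arrays. The brighter probes of miR-181a and miR-181b read 50.3 to 85.7 there. The part of the wider negative control spread in the faint Control readings of miR-181a-1* was not tested.

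The authors' deposited table of 54 selected miRNAs lists 1 form of the family, miR-181b, at place 41. Its values in the authors' deposited table are 19, 21, 15 and 19 in RapCA replicates 1 to 4, against 51, 36, 40 and 44 in Control replicates 1 to 4. They are whole numbers whose unit and scaling are not stated, and the groups do not overlap in them. These values come from the same arrays and from a selected list, so they give no separate support. Overlap among the other listed miRNAs was not counted, so nothing is read from the lack of it here.

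Mir181c and Mir181d share chromosome 8 with the cluster of miR-23a, miR-27a and miR-24, abundant miRNAs of vascular cells, which lies 29556 bases from Mir181c on the opposite strand. All 3 of these miRNAs were past the threshold and lower in RapCA cells, with log2 differences of -0.81 ± 0.09 for miR-24, -0.55 ± 0.15 for miR-27a and -0.38 ± 0.09 for miR-23a (SE; limma adjusted p = 2.71e-05, 0.00860 and 0.00240, n = 4 per group), beside 50% of all tested miRNAs lowered and 76.2% called in either direction. For miR-27a the groups overlapped. With RapCA replicate 2 left out the log2 differences of miR-27a (-0.31) and miR-23a (-0.19) were no longer past it, nor were they with quantile normalization, with cyclic loess or with RapCA replicate 1 as the only RapCA array, which is assumed to vary like the Control arrays. Without the detection filter miR-27a lost the call as well. miR-24 is also made from a second copy elsewhere, and the strands miR-27a* and miR-24-2* were not detected. These neighbours were chosen with earlier results of these data known, so the p-values above are a description and no support. 

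A list of 12 miRNAs known from vascular inflammation, the setting in which miR-181b is best studied in vessels, was set beside the family. Of these 12, 7 were tested, 4 were raised and 1 was lowered, with a median log2 difference of 0.24 against -0.30 for all tested miRNAs, of which 26.2% were raised and 50% lowered. miR-155, an inflammatory miRNA, had 1.52 ± 0.12, miR-222, which promotes smooth muscle growth, 0.995 ± 0.11, and miR-17* 0.76 ± 0.11. miR-10a, which restrains NF-kB signalling in endothelium, had -0.78 ± 0.10 (log2 difference ± SE; limma adjusted p = 2.82e-06, 2.40e-05, 0.000104 and 7.19e-05 in that order). The list was chosen with earlier results of these data known, so these p-values are a description and no support. The raised calls depend on the scaling, since with the percentile over every probe 2 members were raised and 2 lowered (median -0.17). Without scaling 0 were raised and 4 lowered (median -0.83), and miR-222 and miR-17* had -0.007 and -0.29. miR-126-3p, miR-126-5p, miR-146a, miR-146b and miR-223 were not detected on any array.

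By the root mean square difference between log2 profiles centred over the 8 arrays, the miRNAs most like miR-181b among 166 others were miR-652 (0.0932), miR-99b (0.109) and miR-23b (0.118). Those most like miR-181a were miR-337-5p (0.0773), miR-134 (0.0823) and miR-140* (0.0932). The profiles of miR-181a and miR-181b themselves differed by 0.302, more than either from its 3 nearest. These distances depend on the floor of 3.26. The dimmer miR-181a probe lay at it on every RapCA array, and miR-134 averaged 3.27 in RapCA cells. With the floor at 1, the shift of miR-181b against miR-181a was -0.10 in place of -0.60. All these miRNAs share the same 8 arrays and their scaling, so the likeness is a description.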

How the data were processed

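RNA of 8 cultures was labelled with Cy3 and read on 8 single-colour Agilent arrays. Per the file headers, the authors took spot intensity from the scans by Feature Extraction 10.7.3.1 of Agilent (10.7 per the submitters' processing notes), with background subtracted and no scaling between arrays. The deposited value table held the same intensity (largest difference 0). The deposited list of 54 miRNAs holds a whole-number score whose making is not stated.

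Control spots and outlier-flagged spots (2.98% to 4.66% per array) were left out, and 0 family spots were saturated. A probe counted as detected where over 0.5 of its spots were well above background. Signals were scaled to the 75th percentile of 189 probes, floored at 9.61 (percentile 1 of spots well above background) and put on the log2 scale. The mean over a probe's spots was taken, then over those probes of a miRNA that every array of at least 1 group detected. limma 3.58.1 (R 4.3.3) tested RapCA against Control (Benjamini-Hochberg over 168 miRNAs, threshold 0.05). The method was tested on simulated arrays: the fit recovered known changes, but percentile scaling shifted unchanged miRNAs together and led to false calls among them, so counts of calls depend on the scaling and differences are also given relative to the median. Array measures used exact permutation tests. The number of arrays limits the precision. Members and lists were chosen with earlier results of these data known. Named miRNAs are all family forms, the 3 most alike per tested form, the tested neighbours of miR-181c and up to 4 called members of the inflammation list. The files held no mean spot signal, so normexp used median signals.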

Additional observations from a re-analysis of the deposited data

Results flagged for a closer look

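In 4 of 24 sets of 4 arrays examined, 1 array lay far from the others of its group, each time RapCA replicate 1 before scaling. Chance alone gives about 1 in 20 for independent sets. These 4 are readings of the same array, its summed signal among them, so they are not independent and no excess is read from the count. The brighter miR-181a probe of RapCA replicate 1 read 36.5, against 17.2 to 17.7 on the other RapCA arrays. Its brighter miR-181b probe read 22.2, against 9.02 to 11.1, and its dimmer miR-181b probe 9.23, against 3.86 to 4.25. Its summed signal was 86021, against 38058 to 42303. The scaled levels of miR-181a and miR-181b did not stand apart on any array by the same measure.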

How the results depend on the processing

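The fit was repeated under 24 other settings. Since the family was chosen on this contrast, the counts of settings below describe the processing of the same data and are no support for a change. miR-181b stayed lowered and past the threshold in 22 of the 23 that tested it; with only probes detected on all arrays it was not tested. miR-181a stayed so in 20 of 24. It lost the call with cyclic loess (-0.22), normexp without an offset (-0.17) and RapCA replicate 1 as the only RapCA array (-0.60). Normexp with an offset of 50 reversed miR-181a (0.34), miR-181b (0.29), miR-134 (0.53), miR-140* (0.32) and miR-337-5p (0.37), and normexp without an offset reversed miR-134 (0.049); both settings were chosen after seeing the data. miR-17* and miR-222 reversed when arrays were not scaled (-0.29 and -0.0066) and when scaled to spike-ins (-0.28 and -0.0017). The cause was not tested.

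The count of raised miRNAs (44) was 28 when the percentile covered every probe, 10 without scaling, 9 with spike-in scaling and 81 with the offset of 50. That of lowered ones (84) was 53 with cyclic loess, 20 with the offset and 54 with normexp without it (beside 53, 81 and 55 raised), and 103, 113 and 111 under the first 3 scalings. The median of all tested miRNAs was -0.61, -1.03 and -1.07 under those 3, -0.23 after quantile normalization, -0.03 after cyclic loess, 0.37 and -0.01 after normexp with and without the offset, -0.53 on total gene signal, -0.10 without RapCA replicate 2 and -0.04 with the lone RapCA array. Leaving out 1 array gave 39 to 49 raised and 61 to 85 lowered, -1.19 to -0.993 for miR-181b, -0.61 to -0.42 for miR-181a, and 0.381 to 0.531 for the ratio of summed signals.

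The shift of miR-181b against miR-181a (-0.60) was -0.496 without scaling, -0.51 with spike-in scaling, -0.66 after quantile normalization, -0.44 after cyclic loess, -0.049 and -0.28 with normexp with and without the offset, -0.699 with total gene signal, -0.10 with the floor at 1, -0.518 with the brightest probe, -0.520 with the floor at 1 as well and -0.501 unscaled; leaving out 1 array gave -0.603 to -0.555.

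With the replicate number as a block both stayed lowered (-1.14 ± 0.14 and -0.54 ± 0.13, SE), and 41 miRNAs were raised and 77 lowered. Same-numbered arrays shared a slide row, and their deviations correlated at -0.65, -0.60, -0.55 and 0.63 over 168 miRNAs. Arrays of unlike number gave correlations as large, such as 0.75 and -0.75 for RapCA replicate 1 with Control replicates 3 and 4. Whether the numbers pair the cultures therefore cannot be told from these correlations. Normexp on mean signals was not run, since the files hold no such column.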
